A study of Mus musculus with 31 samples.

Results

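H3K27ac, the acetylation of lysine 27 on histone H3, was compared between mouse lung adenocarcinomas that retained the gene Nkx2-1 (positive tumors) and adenocarcinomas in which it had been deleted (deleted tumors). The unit of comparison was the island, a stretch of the genome that the authors' caller found enriched over background, with the number of reads inside it. All islands on chromosomes 1 to 19 were taken, 71961 in positive and 60744 in deleted tumors, or 132705 of the 526837 islands and peaks in the 11 lists of the series. No measured value was used to choose them. The comparison addresses what happens to active chromatin in a tumor that has lost its lung lineage factor, in a study of a gastric differentiation program in these tumors.

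Whole tumors of mice of mixed 129/B6 background, 4 to 7 months old, were used for chromatin immunoprecipitation and sequencing. Virus (adenovirus or lentivirus) had been given through the trachea and tamoxifen into the abdomen. The labels used here give these treatments for all samples, do not assign a virus or a tamoxifen dose to a group, and name no allele other than the Nkx2-1 status. H3K27ac was measured in 2 libraries of positive tumors and 2 libraries of deleted tumors, each time 1 from a male and 1 from a female mouse. Both files of a tumor type were identical, so each type gave 1 pooled list. No difference below therefore has a replicate check, and no test or p-value is given. Intervals are 95% intervals over islands, windows or peaks, cover counting error only, and treat neighbours as independent. Whole tumors also hold stromal and immune cells, and fewer tumor cells and less acetylation per cell cannot be told apart in them. Identity of the tissue could not be checked at marker genes, because gene positions in the build of the files (mm9) were not used here. Regions are given by 1-based mm9 coordinates with no gene assigned.

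H3K27ac is placed on nucleosomes beside active promoters and active enhancers by acetyltransferases that transcription factors recruit. Wide stretches of it usually hold clusters of enhancers and are known for marking genes that define a cell's identity. Nkx2-1 is a homeodomain factor of the lung lineage, and Foxa1 and Foxa2 are forkhead factors of endoderm-derived epithelia that can bind closed chromatin. In lung cells Foxa1 and Foxa2 act together with Nkx2-1 at many enhancers, and in stomach and intestine they act with other factors.

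The reads inside islands, the depth that the lists give, came to 45.0 M in positive and 30.7 M in deleted tumors, a ratio of 1.46. Positive-tumor islands covered 286.9 Mb and deleted-tumor islands 223.5 Mb, a ratio of 1.28. The depth of the 4 libraries themselves was not known. A list from fewer reads can hold fewer, narrower and more broken islands, and the part of depth in the results below was not tested. The shares of split, merged, lost and gained islands, of narrower and wider pairs, of pairs that fell in rank and of changed windows were also computed after the positive list was cut by read density until it covered as many bases as the deleted list. The other values were not. Ranks within a list and shares of a list total carry no overall scale, but they rest on called islands and their edges, which can move with depth.

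Islands were narrower in deleted tumors at the median and at the upper percentiles of width. The median island was 2400 bp wide in positive and 2200 bp in deleted tumors. At the 90th percentile of width islands measured 8400 and 7600 bp, at the 99th 24400 and 22714 bp, and the widest measured 116200 and 95600 bp. Islands of at least 10 kb numbered 5454 in positive tumors, 7.58% of the list (95% Wilson interval 7.39 to 7.77), and 3759 in deleted tumors, 6.19% (6.00 to 6.38). They held 45.1% of the island reads in positive and 41.5% in deleted tumors. Islands of at least 20 kb numbered 1275 and 868, and islands of at least 50 kb 82 and 41. Narrow islands, under 1 kb, were a larger share of the deleted list, 8.23% (8.02 to 8.46) against 7.13% (6.94 to 7.32).

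Matching by an overlap of at least 1 bp sorted the islands into classes. A one-to-one pair is 1 island of each list that overlaps only the other. A split island is a positive-tumor island that overlaps at least 2 deleted-tumor islands, none of which touches a second positive-tumor island, and a merged island is the reverse case in the deleted list. Lost islands overlap nothing in deleted tumors, and gained islands nothing in positive tumors. The 35272 one-to-one pairs made up 49.0% of the positive and 58.1% of the deleted list.

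Wide acetylated domains of positive tumors were more often found broken in deleted tumors than the reverse. Of positive-tumor islands, 5985 were split, or 8.32% (8.12 to 8.52), and they held 28.1% of all island reads of that list. Of deleted-tumor islands, 2513 were merged, or 4.14% (3.98 to 4.30), with 14.8% of the reads. Lost islands numbered 23146, or 32.2% of the positive list, yet held 7.38% of its reads. Gained islands numbered 6530, or 10.8% of the deleted list, with 2.19% of its reads. The split share exceeded the merged share on 19 of 19 chromosomes, with ranges of 7.08 to 9.15% and 3.25 to 4.98%. With the lists cut to equal covered length, the split share was 14.2% and the merged share 1.62%, from 5599 split islands of the 39407 left in the positive list. The order of lost and gained turned under that cut, to 11.3% lost and 31.0% gained. The cut removes whole positive-tumor islands of low density and thins none, so by its construction it shrinks the base of the split share, removes pieces that a merged island needs and leaves fewer islands that can be lost. It therefore says nothing about the stability of the split and merged shares.

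The class of an island followed its width, which the matching itself favors. A wide island has more room to overlap 1 island or several, so lost shares can fall and split and merged shares rise by construction. How much of the order came from that was not tested. Among positive-tumor islands under 1 kb, 63.7% (62.4 to 65.0) were lost and 1 of 5128 was split. Between 2 and 5 kb, 24.8% were lost and 3.26% split. Between 10 and 20 kb, 1.17% were lost and 47.5% (46.0 to 49.0) split. Of the 1275 islands of at least 20 kb none was lost (interval 0 to 0.300%), and 57.4% (54.7 to 60.1) were split. Merging rose with width in the same way but less far, from 23.1% (21.6 to 24.7) at 10 to 20 kb to 32.0% (29.0 to 35.2) at 20 kb and above. At each of the widths from 2 kb upward, the split share was above the merged share.

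**Figure D1:**
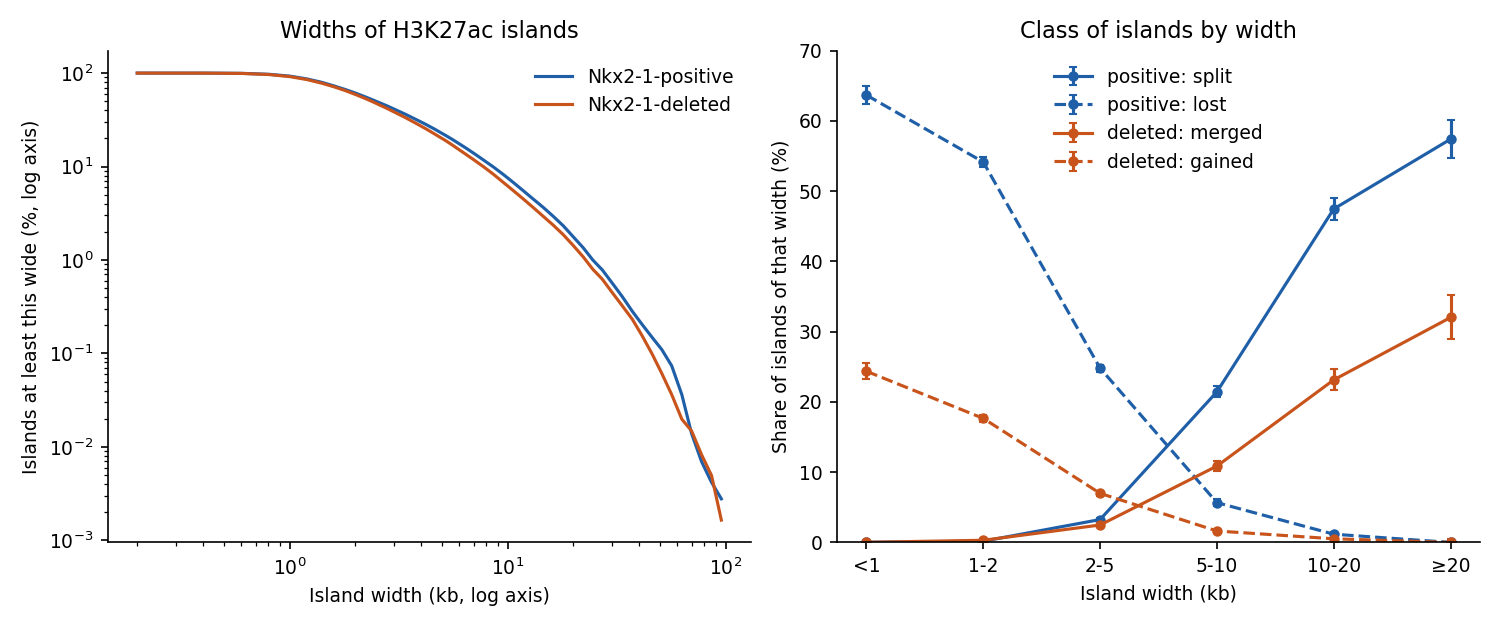
Left, share of islands (percent, log axis) that are at least as wide as the value on the horizontal axis (kb, log axis), for each tumor type. Right, share of islands (percent) in each class by width (kb), with 95% Wilson intervals; lost and gained shares fall with width while split and merged shares rise, and 57.4% of positive-tumor islands of at least 20 kb were split against 32.0% merged in the deleted list. A wide island has more room for overlaps, which favors the falls and rises with width.

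Thinly acetylated wide islands broke more often than dense ones. Positive-tumor islands of 10 to 20 kb were ranked by read density (reads per kb) into 3 equal groups with medians of 129, 181 and 255 reads per kb. The split shares were 60.5% (57.9 to 63.1), 49.3% (46.7 to 51.9) and 32.6% (30.2 to 35.1) from the thinnest to the densest group. Merged shares of deleted-tumor islands of that width varied less, at 23.9%, 24.7% and 20.9% in the same order, with overlapping intervals.

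Most breaks were short. Of the split islands, 4487 (74.97%) fell into 2 pieces, 1032 (17.2%) into 3 and 466 (7.79%) into 4 or more, with at most 11 pieces. Between the pieces lay 8238 gaps with a median of 600 bp, and 62.7% (61.6 to 63.7) of them were 400 or 600 bp long. No gap was shorter than 400 bp, since the caller worked in windows of 200 bp and bridged gaps of 200 bp, and the longest was 12400 bp. A split island still had a median of 75.9% of its length under islands in deleted tumors, with quartiles of 61.1% and 87.0%. Merged islands had been separated in positive tumors by 3071 gaps with a median of 400 bp, of which 72.7% (71.1 to 74.3) were 400 or 600 bp long.

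In positive tumors H3K4me1, the enhancer mark, covered between 76.4% and 100% of each of the 3 islands that broke into the most pieces. Such cover is common, since H3K4me1 covered 87.1% of the bases that H3K27ac islands of both tumor types shared. The first lay on chromosome 1 at 154412601 to 154474000, 61400 bp with 8886 reads in positive tumors. It became 11 islands with 3871 reads that covered 83.7% of its length. It held no Nkx2-1 or Foxa1/2 peak in either tumor type. H3K4me1 covered 98.4% of it in positive and 98.7% in deleted tumors, while H3K4me3, a mark of promoters, covered 37.1% and 7.49%. H3K27me3, the mark of Polycomb silencing, covered 46.9% and 70.7%. The second, on chromosome 2 at 116729801 to 116781400, went from 12740 reads in 1 island to 2491 reads in 10 islands over 57.4% of its length. That island held 4 Nkx2-1 peaks and 3 positive-tumor Foxa1/2 peaks, of which 2 were absent from the deleted-tumor list. The third, on chromosome 12 at 72952001 to 73014200, went from 10518 to 4730 reads in 10 pieces and held 10 Nkx2-1 peaks and 7 Foxa1/2 peaks, 5 of them absent from deleted tumors.

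The 3 islands that joined the most pieces each held Foxa1/2 peaks of deleted tumors, but how many other islands of such width held was not counted. On chromosome 1 at 90321401 to 90380400, 8 islands with 7719 reads became 1 island of 59000 bp with 13855 reads. H3K4me1 cover there went from 49.8% to 87.8%. That island held 6 Nkx2-1 peaks and 5 Foxa1/2 peaks in each tumor type. Of the positive-tumor Foxa1/2 peaks 2 were absent from deleted tumors, and of the deleted-tumor ones 2 were absent from positive tumors. On chromosome 7 at 146425801 to 146486000, 8 islands with 13045 reads became 1 with 22335 reads, and 3 of the 5 deleted-tumor Foxa1/2 peaks in it were not in the positive list. On chromosome 4 at 155425601 to 155476200, 7 islands with 3016 reads over 36.8% of the stretch became 1 of 50600 bp with 8922 reads. No positive-tumor Foxa1/2 peak lay in it and 4 deleted-tumor peaks did. In all 3 regions the reads rose although the deleted list held fewer reads in all. The regions were picked for joining the most pieces, which favors such a rise.

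**Figure D2:**
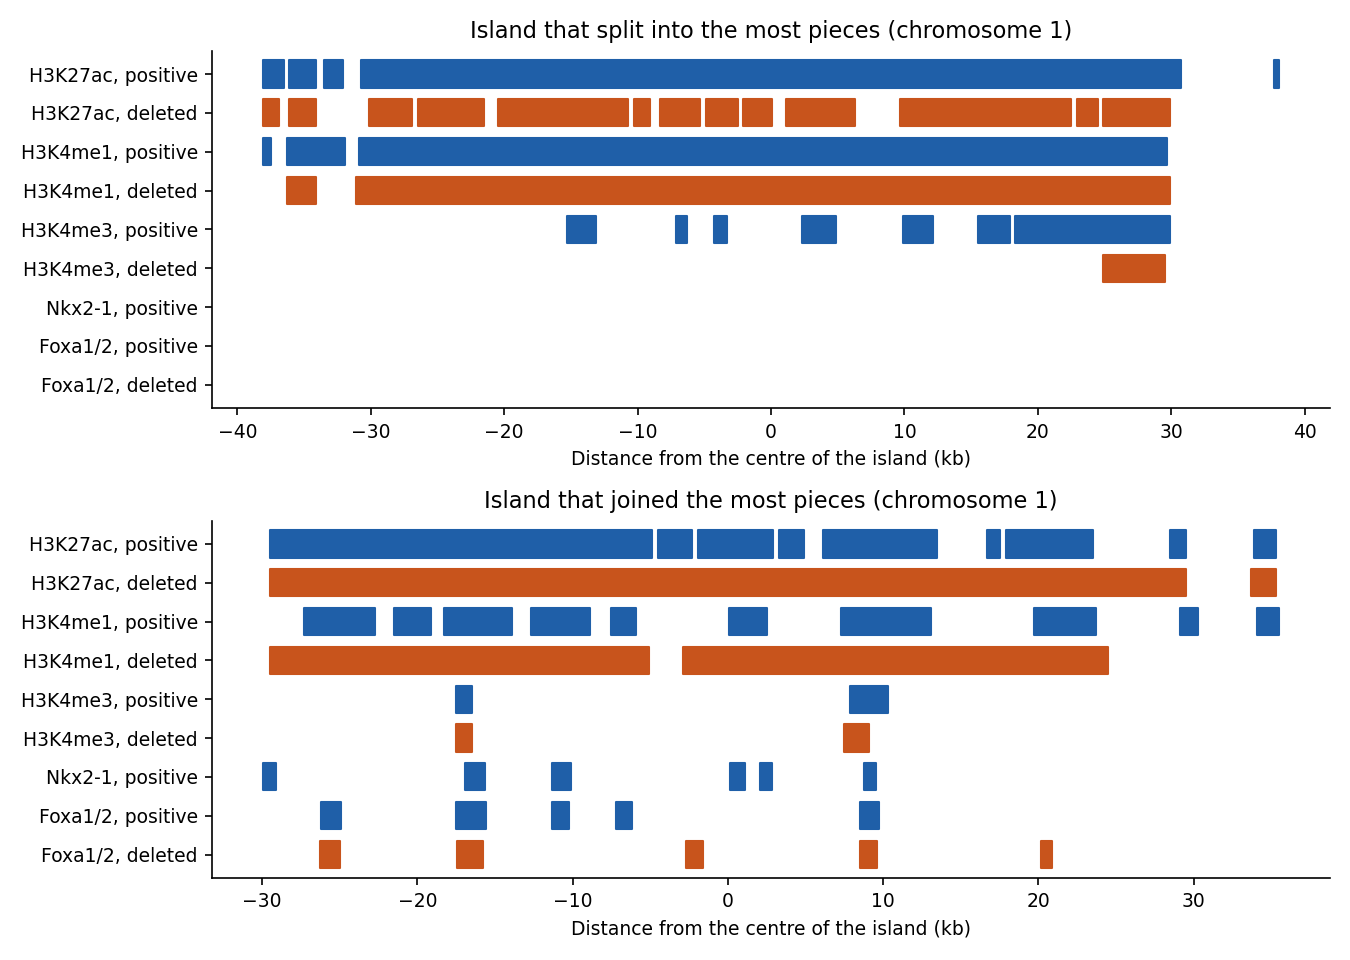
Islands of H3K27ac, H3K4me1 and H3K4me3 and peaks of Nkx2-1 and Foxa1/2 in positive (blue) and deleted (orange) tumors around 2 islands of chromosome 1; the horizontal axis is the distance from the island's centre in kb. The upper island of 61400 bp lies over 11 islands of the deleted list and holds no factor peak, and the lower island of 59000 bp in deleted tumors lies over 8 islands of the positive list.

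Every base under an island of either list was then put into 1 of 7 parts, to see which bases the 2 tumor types did not share. Both lists covered 194.3 Mb. Bases under positive-tumor islands alone came to 42.4 Mb in lost islands, 41.0 Mb at the edges of overlapped islands and 9.20 Mb in gaps inside them. Bases under deleted-tumor islands alone came to 11.1 Mb in gained islands, 14.98 Mb at edges and 3.17 Mb in gaps. As many bases of the positive list were thus trimmed at edges as were lost with whole islands.

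Factor peaks were unevenly spread over these parts. Foxa1/2 peaks were sorted by overlap of at least 1 bp between the 2 Foxa1/2 lists into lost (positive tumors only), kept (both) and gained (deleted tumors only). Those lists came from 2 male mice for positive and 2 female mice for deleted tumors, so sex and tumor type cannot be told apart in these 3 classes. Nkx2-1 peaks had been measured in positive tumors only. Peak summits were counted per Mb, with exact 95% Poisson intervals.

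Nkx2-1 summits numbered 116 per Mb (115 to 118) in the common bases and 65.3 (62.9 to 67.8) in lost islands. They numbered 23.4 (22.0 to 24.9) at positive-only edges and 20.5 (17.7 to 23.7) in positive-only gaps. Summits of lost Foxa1/2 peaks stood at 43.3 per Mb in the common bases and at 44.9 (42.9 to 46.9) in lost islands, so their density was alike in both. At positive-only edges and gaps they numbered 15.04 and 14.1 per Mb. Kept Foxa1/2 summits were concentrated in the common bases, at 42.9 per Mb (41.9 to 43.8), against 2.68 to 4.56 in the 3 positive-only parts.

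Gained Foxa1/2 summits were densest in gained H3K27ac islands. They numbered 49.7 per Mb (45.6 to 54.0) there and 14.996 (14.5 to 15.6) in the common bases. At deleted-only edges there were 13.5 (11.7 to 15.5), and in deleted-only gaps 9.79 (6.65 to 13.9). In the positive-only parts they numbered between 0.869 and 1.61 per Mb. H3K4me1 islands followed the change of acetylation in each part. In lost islands H3K4me1 cover went from 61.4% of the bases in positive to 37.6% in deleted tumors, and in gained islands from 29.3% to 62.9%. In positive-only gaps it went from 68.0% to 51.4%, and in deleted-only gaps from 42.6% to 70.8%. H3K27me3 cover rose by a few points in each of the 7 parts, from 10.5% to 12.8% in lost and from 14.7% to 16.9% in gained islands.

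**Figure D3:**
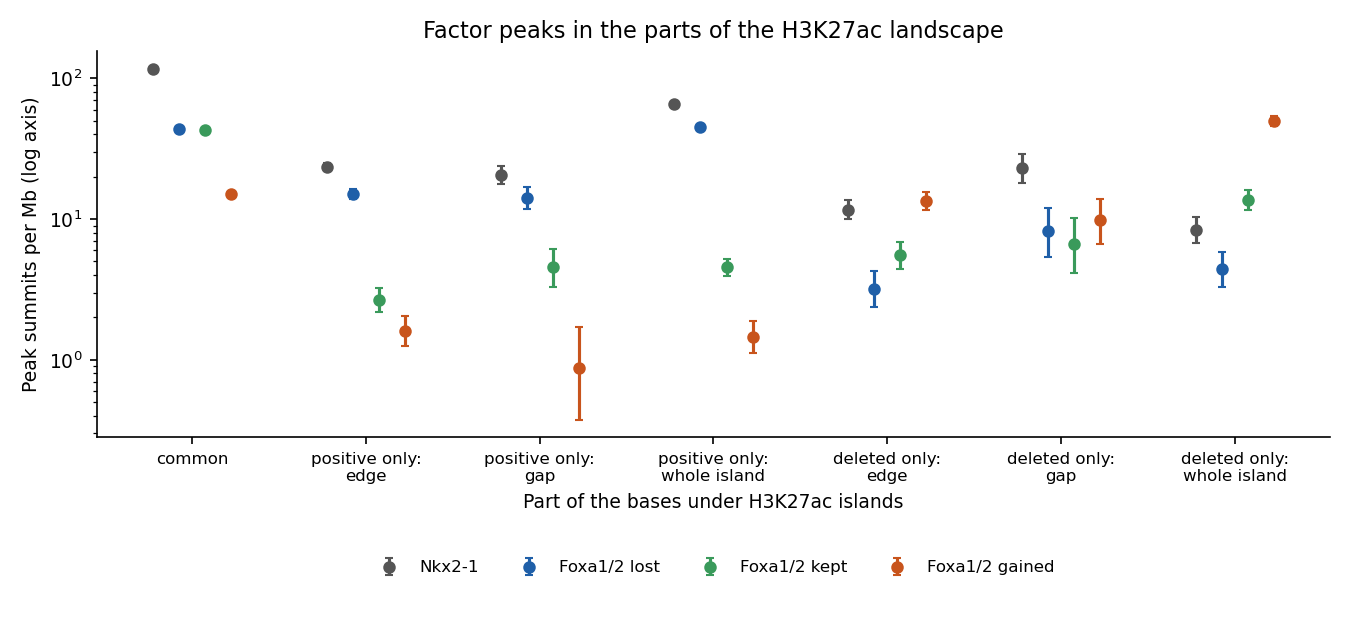
Peak summits per Mb (log axis) of Nkx2-1 and of lost, kept and gained Foxa1/2 peaks in the 7 parts of the bases under H3K27ac islands; bars are exact 95% Poisson intervals. Lost Foxa1/2 peaks reach 44.9 per Mb in lost islands and gained Foxa1/2 peaks 49.7 per Mb in gained islands, against 15.04 and 13.5 per Mb at the edges of the same list.

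The share of wide islands that broke differed with factor content. Of positive-tumor islands of 10 to 20 kb, 44.2% (42.4 to 45.9) of those with an Nkx2-1 peak were split against 56.7% (53.8 to 59.6) of those without one, beside 47.5% over all islands of this width. The split share was 55.0% (52.0 to 58.0) where the Foxa1/2 peaks were all lost ones and 56.5% (53.7 to 59.3) where there was no Foxa1/2 peak. Where all were kept ones it was 38.3% (35.04 to 41.7), and where all were gained ones 38.6% (31.5 to 46.1). At 20 kb and above the same groups gave 71.4% (64.9 to 77.2), 77.9% (69.4 to 84.5), 46.8% (39.2 to 54.6) and 56.4% (43.3 to 68.6). Islands with kept peaks were thus split less often than islands with lost peaks or none, and the share with lost peaks was not above that of islands without any. Read density, with which the split share also moved, was not held fixed across these groups.

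Merging showed a different order. Of deleted-tumor islands of 10 to 20 kb, 44.6% (38.7 to 50.6) of those with gained Foxa1/2 peaks alone were merged, beside 23.1% over all islands of that width. The merged share was 26.0% (22.9 to 29.4) with kept peaks alone and 21.8% (18.8 to 25.2) with none. With lost peaks alone it was 13.8% (10.9 to 17.2). Between 5 and 10 kb the order was the same, at 18.9%, 12.1%, 10.7% and 5.63%.

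Islands matched one to one were mostly narrower in deleted tumors. Of the 35272 pairs, 60.1% (59.6 to 60.6) were narrower in deleted tumors, 28.4% (27.97 to 28.9) wider and 11.4% of equal width. The narrower share exceeded the wider share on each of the 19 chromosomes. With the lists cut to equal covered length the shares were 59.4% and 29.2%. That cut drops whole islands and changes no edge of those left, so it cannot show whether these shares move with depth. The median width of paired islands was 2800 bp in positive and 2400 bp in deleted tumors. The median ratio within a pair was 0.895. The middle part of the pairs, from the lower to the upper quartile, changed by between -1200 and 200 bp, steps of the caller's window of 200 bp. Narrowing was as frequent on either side, with the left edge drawn in for 49.6% and the right edge for 49.4% of pairs. Both edges were drawn in for 30.1% (29.7 to 30.6) and both were pushed out for 10.5% (10.2 to 10.8).

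Width followed Foxa1/2 content in pairs as well. Among the 3481 pairs whose Foxa1/2 peaks were all lost, 78.2% (76.8 to 79.5) were narrower and 13.8% wider, and the median width was 4800 bp in positive against 2800 bp in deleted tumors. Among the 1343 pairs with gained peaks alone, 31.0% (28.6 to 33.6) were narrower and 60.5% (57.9 to 63.1) wider, with medians of 3000 and 4000 bp. Pairs with kept peaks alone were narrower in 51.0% and wider in 38.7% of 3323 cases. Pairs without a Foxa1/2 peak, 26095 in number, stood close to all pairs with 60.6% narrower. Nkx2-1, lost and kept peaks were counted in the positive-tumor island of a pair and gained peaks in either island, so a wide island could hold more of them. Counted only in the bases common to both islands, a choice made after seeing the data, 77.0% of lost-peak and 31.8% of gained-peak pairs were narrower.

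The 3 pairs that lost the most width kept only a short remnant. The island on chromosome 11 at 107570801 to 107594600 went from 23800 bp with 4003 reads to 2200 bp with 156 reads, and held 4 Nkx2-1 peaks and 2 lost Foxa1/2 peaks. The island on chromosome 5 at 89873201 to 89894600 went from 21400 bp with 3621 reads to 800 bp with 45 reads and held 1 Nkx2-1 peak and no Foxa1/2 peak. The island on chromosome 1 at 94330601 to 94351200 went from 20600 bp with 4002 reads to 2400 bp with 150 reads and held 3 Nkx2-1 and 4 lost Foxa1/2 peaks. H3K4me1 cover was lower in deleted tumors at all 3, at between 23.5% and 40.2%, and H3K27me3 was absent from all 3 in both tumor types.

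The 3 pairs that gained the most width held no Nkx2-1 peak, as did 24583 of all 35272 pairs. On chromosome 15 at 61619201 to 61639000 a 600 bp island with 52 reads stood in positive tumors and a 19800 bp island with 2541 reads in deleted tumors, with 2 gained Foxa1/2 peaks. On chromosome 17 at 72992401 to 73010200 the change was from 3000 to 17800 bp and from 233 to 2122 reads, over 1 Foxa1/2 peak found in both tumor types. On chromosome 7 at 53375201 to 53390400 it was from 1200 to 15200 bp and from 72 to 1646 reads, with 2 gained Foxa1/2 peaks. H3K27me3 covered 73.7% of this last region in positive tumors and 94.7% in deleted tumors, so both marks were listed over it in the whole-tumor chromatin.

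The order of islands by read density was largely shared. Density is the reads of an island divided by its width, and each pair was given a percentile among all pairs in each list. Across the 35272 pairs the 2 densities had a Spearman correlation of 0.775, a description across islands of 2 lists, whose neighbours are not independent. For 49.0% of pairs the percentile differed by at most 10 points. By 20 points or more, 13.3% fell and 12.8% rose. Of the 3528 densest pairs in positive tumors, the upper 10%, 2483 (70.4%) were also among the upper 10% in deleted tumors. Only 19 of them stood below the median in deleted tumors, and 10 pairs made the opposite move.

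Falls and rises in this ranking separated by the class of Foxa1/2 peaks. Those classes are changes between the tumor types, whereas Nkx2-1 peaks were known in positive tumors only, so the 2 contrasts are unlike. Over all pairs the percentile was lower in deleted tumors for 49.9%, which is near 50 because both lists rank the same pairs. With an Nkx2-1 peak it fell in 53.6% (52.6 to 54.5) of 10689 pairs, and without one in 48.3% (47.7 to 48.9) of 24583. The share rose with the number of Nkx2-1 peaks in the island, from 51.8% with 1 to 59.3% with 2, 63.9% with 3 and 66.5% (60.3 to 72.2) with 4 or more, while the median width in positive tumors rose from 4000 to 21000 bp. The median percentile in positive tumors rose along the same groups, from 72.4 to 95.9, which leaves less room for a rise in rank. In 4 bands by the mean of the 2 percentiles of a pair, from the lowest to the highest density, 63.2%, 63.7%, 53.1% and 49.0% of Nkx2-1 pairs fell. Pairs without Nkx2-1 fell in 50.8%, 46.9%, 48.0% and 46.9% of cases in those bands. Pairs with lost Foxa1/2 peaks alone fell in 68.2% (66.7 to 69.8) of cases, with a median change of -7.62 points. With kept peaks alone 40.2% (38.6 to 41.9) fell, and with gained peaks alone 22.5% (20.3 to 24.8), with a median rise of 13.0 points. Pairs without a Foxa1/2 peak fell in 49.9% of cases, as all pairs did. Counted in the bases common to both islands, 68.7% of lost-peak, 40.3% of kept-peak and 22.3% of gained-peak pairs fell. Lost-peak pairs were above pairs without Foxa1/2 peaks, and these above gained-peak pairs, on 19 of 19 chromosomes.

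Nkx2-1 and Foxa1/2 content were then combined. Pairs with lost Foxa1/2 peaks fell in 73.1% (71.3 to 74.7) of cases where an Nkx2-1 peak was present and in 54.2% (50.9 to 57.4) where none was, with medians of -9.87 and -1.57 points. This order held on 19 of 19 chromosomes. Without a Foxa1/2 peak, pairs with an Nkx2-1 peak fell in 46.0% (44.6 to 47.4) of 4879 cases, which is below the share over all pairs. These pairs were dense, at a median percentile of 76.1 in positive tumors. In the highest of the 4 bands of mean percentile, 45.3% of all pairs without a Foxa1/2 peak fell. Pairs without a Foxa1/2 peak were not divided by Nkx2-1 within the bands. Gained-peak pairs fell in 18.7% (16.5 to 21.2) of cases without an Nkx2-1 peak, where the median percentile went from 33.6 to 61.4. With an Nkx2-1 peak 36.7% (31.2 to 42.4) of them fell, with medians of 78.1 and 81.2. These groups started at different densities, so all lost-peak and all gained-peak pairs were also read within the 4 bands of mean percentile. From the lowest to the highest density, 64.4%, 71.6%, 72.6% and 61.3% of lost-peak pairs fell. Of gained-peak pairs 26.9%, 13.6%, 18.7% and 38.4% fell in the same bands, so the 2 groups stood apart in each.

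**Figure D4:**
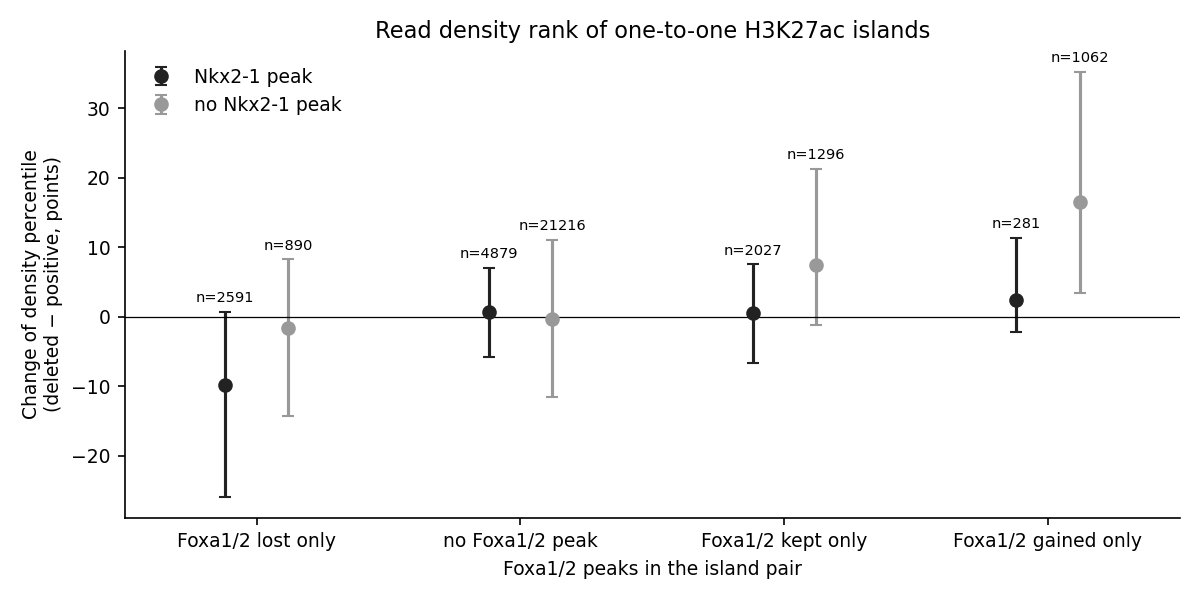
Change of the density percentile of one-to-one island pairs (deleted minus positive, in points) by Foxa1/2 content, with an Nkx2-1 peak (black) and without (grey). Points are medians, bars run from the lower to the upper quartile and n is the number of pairs; the median is -9.87 points for lost Foxa1/2 peaks with Nkx2-1 and 16.5 points for gained Foxa1/2 peaks without Nkx2-1.

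The score of the Foxa1/2 peak, a value of the authors' peak caller, ordered these pairs further. Lost-peak pairs were ranked by the highest score of their peaks into 3 groups with median scores of 77, 142 and 384. The shares that fell were 58.4% (55.6 to 61.2), 65.6% (62.8 to 68.3) and 80.7% (78.3 to 82.9), and the median change in the top group was -16.2 points. Gained-peak pairs fell in 27.2%, 24.9% and 15.4% (12.4 to 19.04) of cases from the lowest to the highest scores, and in the top group 50.9% rose by 20 points or more. Pairs with kept peaks moved the other way, from 30.1% (27.5 to 32.9) falling at the lowest scores to 53.3% (50.4 to 56.2) at the highest. For kept peaks the score is that of positive tumors. Density was not held fixed across the groups by score. Of all kept-peak pairs, 36.5%, 32.6%, 37.9% and 47.2% fell in the 4 bands of mean percentile, from lowest to highest.

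Pairs with another active mark in positive tumors only fell in rank more often. Each island of a pair was set against the other mark of its own tumor type, so a narrower island could miss the mark. Median widths went from 2600 to 1600 bp in pairs with H3K4me1 in positive tumors only, and from 3800 to 2400 bp for H3K4me3. The marks were not recounted in the bases common to both islands. Where H3K4me1 islands overlapped the pair in positive tumors only, 78.1% (76.0 to 80.1) of 1604 pairs fell, with medians of 35.8 and 19.6 on the percentile scale. Where they did so in deleted tumors only, 29.8% (26.8 to 32.9) of 843 pairs fell. For H3K4me3 the shares were 68.8% (67.3 to 70.2) of 4085 pairs with the mark in positive tumors only and 22.3% (17.8 to 27.6) of 278 with the mark in deleted tumors only. Pairs with H3K4me3 in both tumor types were dense, at medians of 74.99 and 76.3, and 44.4% of them fell. For H3K27me3, 54.2% (52.5 to 55.9) of 3355 pairs with the mark in both tumor types fell, against 49.5% (48.9 to 50.03) of 30280 with it in neither. With the mark in positive tumors only 54.2% (48.4 to 59.9) of 284 pairs fell, and with it in deleted tumors only 48.3% (45.6 to 50.9) of 1353. Falls of 20 points or more made up 22.5% (18.1 to 27.7) and 12.6% (10.9 to 14.4) of these last 2 groups.

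Among pairs at least 2000 bp wide in both lists, the 3 largest falls each had an Nkx2-1 and a Foxa1/2 peak. Of all 35272 pairs of any width, 10689 held an Nkx2-1 peak and 26095 held no Foxa1/2 peak. The median percentile in positive tumors was 75.6 with an Nkx2-1 peak and 38.4 without one. A large fall needs a high start, so the pick favors pairs with such peaks. On chromosome 9 at 22220401 to 22225600 the island had 1345 reads in positive and 135 in deleted tumors, and its percentile went from 92.0 to 4.73. Its 1 Foxa1/2 peak was found in both tumor types, and H3K4me3 cover went from 46.2% to 0. On chromosome 13 at 111078401 to 111083200 reads went from 1236 to 143 and the percentile from 91.9 to 8.18, with 1 lost Foxa1/2 peak. On chromosome 4 at 10712401 to 10722200 reads went from 1740 to 92 and the percentile from 76.9 to 1.26, with 2 Nkx2-1 and 2 lost Foxa1/2 peaks.

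The 3 largest rises held no Nkx2-1 or Foxa1/2 peak of either tumor type. Among the 35272 pairs of any width 21216 held neither, so this is common among pairs. The island on chromosome 2 at 180695601 to 180699600 went from 173 to 945 reads and from the 3.77 to the 90.7 percentile. The island on chromosome 7 at 73921401 to 73927400 went from 109 to 980 reads and from 0.0397 to 79.3, and that on chromosome 17 at 25299401 to 25306000 from 132 to 1169 reads and from 2.67 to 81.6. H3K4me1 cover was higher in deleted tumors at all 3, going from between 12.1% and 60% to between 76.7% and 95%.

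The genome was then read in windows of 1 Mb, with each window's island reads taken as a share of the total of its list. Windows with at least 2000 reads over both lists numbered 1843 of 2113 that held any. The share was lower in deleted tumors by 1.5-fold or more in 387 windows, 21.0% (19.2 to 22.9), and higher by 1.5-fold or more in 100, 5.43% (4.48 to 6.56). The median ratio of deleted to positive shares was 0.934. The lower windows held 12.6% of the island reads in positive and 6.82% in deleted tumors. In higher windows these shares were 4.17% and 7.19%. With the lists cut to equal covered length, 16.8% of windows were lower and 7.34% higher.

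Lower windows were the poorest in island reads, with a median of 13617 over both lists. The median was 26650.5 in higher windows and 38917 in windows in between. In 5 groups of windows by total reads, from poorest to richest, 41.5%, 30.2%, 19.8%, 10.6% and 2.98% were lower. The share of higher windows varied between 3.80% and 6.50% without an order. The median ratio went from 0.741 (poorest) to 1.098 (richest). Island reads were thus more concentrated in the rich windows in deleted tumors. Fewer reads in a list can also drop islands first where they are thin, and the part of that in this order was not tested.

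Foxa1/2 peaks in the windows followed the change. In lower windows 69.7% of the positive-tumor Foxa1/2 peaks were lost ones, against 56.0% in windows in between and 43.4% in higher windows. Gained peaks were 27.99%, 32.8% and 42.5% of the deleted-tumor Foxa1/2 peaks in these 3 kinds of windows. Within the 3 richer groups of windows by reads the lost shares were 67.8%, 55.2% and 42.3%, so the order was the same there. Windows share peaks of 1 list and these are descriptions with no test.

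**Figure D5:**
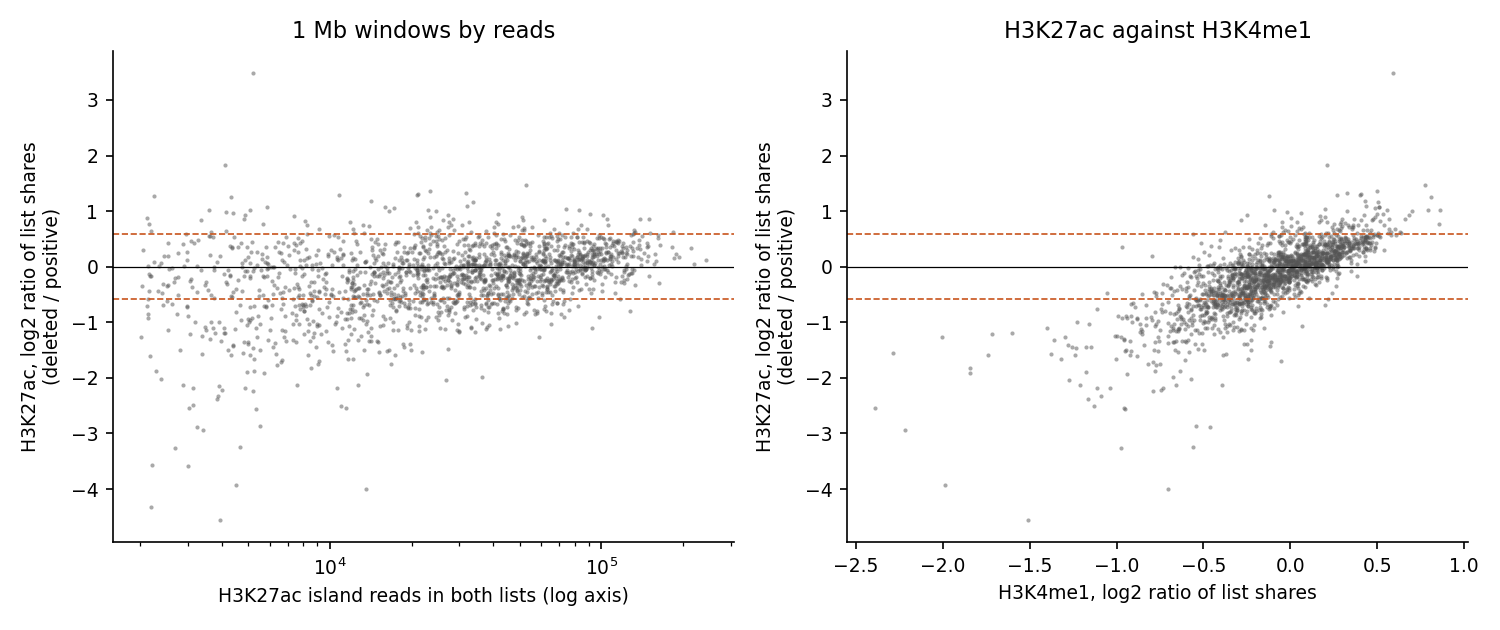
Each point is a 1 Mb window; the vertical axis in both panels is the log2 ratio of its H3K27ac share in deleted over positive tumors, and dashed lines mark 1.5-fold. Left, against the island reads of both lists (log axis); right, against the same log2 ratio for H3K4me1, in windows with enough H3K4me1 reads; the 1 window without deleted-tumor island reads is not drawn. Lower windows lie mainly at few reads, and the H3K4me1 ratio rises with the H3K27ac ratio.

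H3K4me1 moved with H3K27ac along the genome. Over 1831 windows the Spearman correlation of the 2 ratios was 0.788, against 0.488 for H3K4me3 (1763 windows) and 0.237 for H3K27me3 (1647 windows). These are descriptions across windows whose histone libraries came from tumors of the same types. In windows lower for H3K27ac, the H3K4me1 ratio was below 1 in 99.2% (97.7 to 99.7) of 377, beside 61.2% of all windows, with a median of 0.713. In windows higher for H3K27ac it was above 1 in 87.0% of 100, beside 38.8% of all. The change of H3K4me1 was the smaller one, since 9.28% of windows were lower by 1.5-fold for H3K4me1 and 0.710% higher.

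The windows with the largest falls lost most of their islands and nearly all island reads. On chromosome 12 from 94000001 to 95000000, 13 islands with 2814 reads stood in positive tumors and none in deleted tumors, so no fold is given. On chromosome 9 from 93000001 to 94000000, 12 islands with 3829 reads became 2 with 111 reads, a ratio of 0.0425 after scaling to the list totals. On chromosome 8 from 76000001 to 77000000, 7 islands with 2127 reads became 1 with 73 reads. On chromosome 9 from 29000001 to 30000000, the richest of the 5, 24 islands with 13009 reads became 5 with 556 reads, a ratio of 0.0626. That window held 13 Nkx2-1 peaks and 12 lost, 3 kept and no gained Foxa1/2 peaks. On chromosome 15 from 42000001 to 43000000, 21 islands with 4324 reads became 1 with 194 reads. In all 5 windows the H3K4me1 share also fell, to ratios of between 0.168 and 0.614. These ratios were above those of H3K27ac, but the windows were picked for the largest falls of H3K27ac, which favors that order. The lowest, on chromosome 8, rests on 724 H3K4me1 reads in positive and 101 in deleted tumors.

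The 5 windows with the largest rises differed in their Foxa1/2 peaks. For comparison, windows in between held a mean of 5.85 kept and 2.85 gained Foxa1/2 peaks. On chromosome 10 from 28000001 to 29000000, 3 islands with 606 reads in positive tumors stood against 8 with 4625 reads in deleted tumors, a ratio of 11.2, over 5 gained Foxa1/2 peaks, 1 kept and none lost. H3K27me3 had a ratio of 0.501 in that window. On chromosome 2 from 10000001 to 11000000 reads went from 1204 to 2927, over only 1 kept and 1 gained Foxa1/2 peak. On chromosome 16 from 97000001 to 98000000 reads went from 18285 to 34627 with 35 islands in each list, a ratio of 2.77, and the bases covered rose from 148.2 to 220.8 kb. That window held 22 Nkx2-1 peaks and 6 lost, 10 kept and 6 gained Foxa1/2 peaks. On chromosome 18 from 25000001 to 26000000 the ratio was 2.57, and on chromosome 16 from 55000001 to 56000000 it was 2.50, with 31 islands in positive and 48 in deleted tumors.

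Ratios of neighbouring windows were weakly related. Over 1554 neighbouring windows the ratios had a Spearman correlation of 0.196. Of the windows, 21.0% were lower and 5.43% higher, which favors runs of lower ones. How many runs these shares alone would give was not counted. Lower windows formed 11 runs of 3 or more. The longest were 4 Mb, on chromosome 2 from 43000001 to 47000000, chromosome 3 from 79000001 to 83000000 and chromosome 17 from 8000001 to 12000000. The first of these went from 39424 to 10516 reads, a ratio of 0.391, and held 5 Nkx2-1 peaks, against 36 in the run on chromosome 17. No run of higher windows was longer than 2. Whole chromosomes varied between ratios of 0.911 on chromosome 13 and 1.11 on chromosome 7, and H3K4me1 had its lowest and highest ratios, 0.931 and 1.11, on the same 2 chromosomes.

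Set beside the other 3 marks, the direction of splitting was not common to all. For H3K4me3, with a read ratio of positive to deleted lists of 1.48, 3.27% of positive-tumor islands were split and 0.208% of deleted-tumor islands merged, and 82.7% of one-to-one pairs were narrower in deleted tumors. For H3K4me1, with a read ratio of 1.201, the split share of 3.92% (3.79 to 4.06) was below the merged share of 4.94% (4.78 to 5.11), and 44.5% of pairs were narrower and 42.6% wider. For H3K27me3, with a read ratio of 0.910, the shares were 7.73% (7.50 to 7.97) and 7.38% (7.15 to 7.62), and 45.9% of pairs were narrower and 47.4% wider. Splitting thus exceeded merging for H3K27ac, H3K4me3 and, by a small margin with overlapping intervals, H3K27me3, and was below it for H3K4me1. The caller's gap was 200 bp for H3K27ac and H3K4me3 and 600 bp for H3K4me1 and H3K27me3. Shares of split islands are therefore not on 1 scale across marks, and the part of depth in them was not tested.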

How the data were processed

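Build mm9 and the tools SICER 1.1, MACS 1.4.2 and Bowtie are listed, with no role, per the submitters' processing notes. Per the labels' protocols, H3K27ac was precipitated with the Abcam antibody ab4729 from pulverized, cross-linked tumors. The deposited island lists, marked as merged, carry in their names an FDR of 0.01 and a 200 bp window. The gap given there is 200 bp for H3K27ac and H3K4me3, and 600 bp for H3K4me1 and H3K27me3. Each deposited island has a read count, not scaled for depth and with no statement of input subtraction. Each deposited peak of Nkx2-1 and Foxa1/2 has a score from the authors' peak caller, at least 60, and a summit, with a p of 1e-06 in the list names.

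Groups follow the titles. In each of 11 groups the 2 files were identical (22 files), and 9 inputs were not used here. Islands of chromosomes 1 to 19 were matched by at least 1 bp. The end column is the last base, so width is end minus start plus 1. Percentiles of reads per width were ranked among one-to-one pairs. Window reads were spread by overlap. Shares have Wilson and summit densities exact Poisson intervals. Computation used Python 3.11.15, numpy 2.4.6, pandas 2.3.3 and scipy 1.17.1, and figures matplotlib 3.10.9. The steps for split, merged and lost islands, narrower pairs and windows were tested on simulated lists.

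Named regions were the 3 most split and 3 most merged islands, the 3 pairs with the largest loss and gain of width, the 3 with the largest fall and rise of percentile (at least 2000 bp in both lists), and the 5 windows with the largest fall and rise. The comparisons, lists and rules were chosen with earlier results of these data known. Alternatives were another overlap, the upper part of each list, joined islands, equal covered length, percentiles over the whole list, another window size, assignment by midpoint and another fold. Those for Foxa1/2 pairs were chosen after seeing the data. Gene names and sequences need the mm9 build and were not used here.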

Additional observations from a re-analysis of the deposited data

How the results depend on the processing

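No paired analysis was possible because the 2 files of a group hold the same values, which leaves 1 list for each tumor type, no replicate could be left out, and no library could be taken out of a pool. Among the alternative values, 14 lay within the main 95% interval and 38 outside it, and the cause of each move was not tested. Order held in the alternatives run for split above merged (4 of 4, of which equal covered length widens the gap by construction), narrower above wider (3 of 3), lower above higher windows (5 of 5), Nkx2-1 pairs above pairs without (4 of 4), and lost above no above gained Foxa1/2 peaks (4 of 4). The 3 alternatives for narrower and wider pairs drop islands or matches and change no edge, so they do not check the widths themselves. Lost above gained islands held in 3 of 4 and turned with equal covered length.

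With an overlap of at least 50% of the shorter island, the merged share was 3.92%, the lost share 32.7%, the gained share 11.3% and the wider share 29.1%. With the upper 50% of each list by read count, the split share was 5.52%, merged 3.01%, lost 28.9%, gained 11.1%, wider pairs 29.6% and higher windows 7.05%. There the percentile fell in 50.4% of Nkx2-1 pairs, and in 65.0%, 27.7% and 48.8% of pairs with lost, gained and no Foxa1/2 peaks. With islands up to 1000 bp apart joined, the split share was 7.81%, merged 3.05%, lost 28.7% and gained 9.05%. With equal covered length, the split share was 14.2%, merged 1.62%, lost 11.3%, gained 31.0%, narrower pairs 59.4%, wider pairs 29.2%, lower windows 16.8% and higher windows 7.34%. The percentile then fell in 51.9% of Nkx2-1 pairs, 25.1% of gained-peak pairs and 49.0% of pairs without a Foxa1/2 peak. With percentiles over the whole list, which also rank lost and gained islands, it fell in 64.1% of pairs with and 62.8% without an Nkx2-1 peak, and in 77.8%, 33.4% and 64.1% of pairs with lost, gained and no Foxa1/2 peaks. Windows of 0.5 Mb gave 25.3% lower and 8.59% higher, and a fold of 2 gave 9.01% and 1.25%. The depth of single libraries was not known, so its limits could not be measured.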

Other observations

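Distances were taken from lost and gained islands to the islands that the 2 tumor types shared. Distances among the shared islands themselves were not measured, so no background stands beside these values. Factor shares over all islands of such width were not counted either. Lost islands had a median distance of 5.2 kb to the nearest positive-tumor island with a match in deleted tumors, and gained islands a median of 4.4 kb to the nearest deleted-tumor island with a match. Within 5 kb lay 49.5% (48.8 to 50.1) of the 23146 lost and 53.1% (51.9 to 54.3) of the 6530 gained islands, and beyond 50 kb 10.9% and 8.16%. The islands away from shared ones, beyond 5 kb, held more factor peaks. An Nkx2-1 peak lay in 19.2% (18.5 to 19.9) of the 11691 lost islands away and in 8.06% (7.57 to 8.57) of the 11455 nearby, at median widths of 1600 and 1400 bp. A lost Foxa1/2 peak lay in 14.0% (13.3 to 14.6) of the former and 5.39% (4.99 to 5.81) of the latter.

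Gained islands showed the same order for gained Foxa1/2 peaks. They lay in 13.0% (11.9 to 14.2) of the 3060 gained islands away from shared ones and in 6.86% (6.06 to 7.75) of the 3470 nearby, at a median width of 1400 bp in both. In deleted tumors an H3K4me1 island overlapped 78.7% of the gained islands away and 63.8% of those nearby, against 50.4% and 35.9% in positive tumors. For H3K27me3 the shares in deleted tumors were 27.8% away and 11.8% nearby.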
